A study of Homo sapiens with 4 samples.

Results

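The platelet-derived growth factor (PDGF) ligands and receptors were followed in ES-2, a human cell line derived from an ovarian cancer that carries the YAP1-MAML2 (YM) fusion. The genes were taken by symbol: the ligand genes PDGFA, PDGFB, PDGFC and PDGFD, the receptor genes PDGFRA and PDGFRB, and the receptor-like gene PDGFRL, 7 of the 19626 genes in the deposited tables. Cells had been infected for 8 h on consecutive days with pLKO.1 lentivirus carrying a non-targeting shRNA (shCtl, n = 2 biological replicates) or shM2-3, an shRNA against MAML2 (n = 2). These times and the RNA harvest at 96 h after the first infection come from the labels, and the study's methods give shorter exposures on more days and an earlier harvest. The shRNA sequence is shared by MAML2 and the fusion, so the comparison does not separate loss of one from loss of the other, and both groups carry the fusion and the lentiviral vector. A single shRNA in a single cell line stands behind all values.

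PDGFs are secreted as disulfide-linked dimers that draw 2 receptor chains together, whereupon the intracellular tyrosine kinases phosphorylate each other and recruit signalling proteins. PDGFA and PDGFB are cleaved inside the cell, whereas PDGFC and PDGFD leave it with an N-terminal CUB domain that extracellular proteases must remove. PDGFRA responds to A, B and C chains and PDGFRB mainly to B and D chains. In tissues the receptors mark mesenchymal cells such as fibroblasts and pericytes, and epithelial tumours more often make the ligands than the receptors.

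The libraries held between 20051083 and 23978660 estimated counts. Counting error alone was between 1.34% (PDGFRA) and 16.0% (PDGFB) of a count among the 7 genes. MAML2 kept 36.2% of its control RPKM in shM2-3 cells. The fusion transcript carries MAML2 exons too, and its reads within them are not separated from those of MAML2. The value is therefore not the level of native MAML2 alone. Among the epithelial and ovarian tumour markers KRT8, KRT18, KRT19, EPCAM, PAX8 and NAPSA, only KRT8 and KRT18 exceeded 1 RPKM. Both keratins fell, KRT8 from 73.3 and 70.5 to 29.1 and 29.7 RPKM (log2 fold change -1.22, called lower) and KRT18 from 294 and 299 to 176 and 179 (-0.68, past the adjusted p but not called), and their part in the PDGF values was not tested. PAX8, which is used to recognise tumours of this origin, had at most 22 counts in any library, and EPCAM and KRT19 had at most 6 and 13.

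After MAML2/YM knockdown the receptor genes rose, PDGFB and PDGFC fell, and PDGFA and PDGFRL rose slightly. Genes were tested with edgeR (quasi-likelihood F test, Benjamini-Hochberg adjustment over 12157 genes), and a gene was called where the adjusted p did not exceed 0.05 and the fold change reached 2. By this rule 2 members were called higher (PDGFRA and PDGFRB) and 1 was called lower (PDGFB), so that 3 of 7 were called against a background of 18.2% of all genes tested (9.24% higher and 8.93% lower). With the adjusted p alone, 6 of 7 members passed against a background of 72.7%, namely 4 higher (background 36.3%) and 2 lower (background 36.4%), a share near that of all genes. The RPKM values of the groups did not overlap for any of the 7 members, but they did not overlap for 86% of all genes tested either. Of the 7, 3 entered the test only through the group in which they were high, PDGFB through shCtl and PDGFRB and PDGFD through shM2-3, since a gene needed an RPKM above 1 in at least 1 library. In bulk RNA, fewer cells making a transcript and less transcript per cell cannot be told apart.

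**Figure D1:**
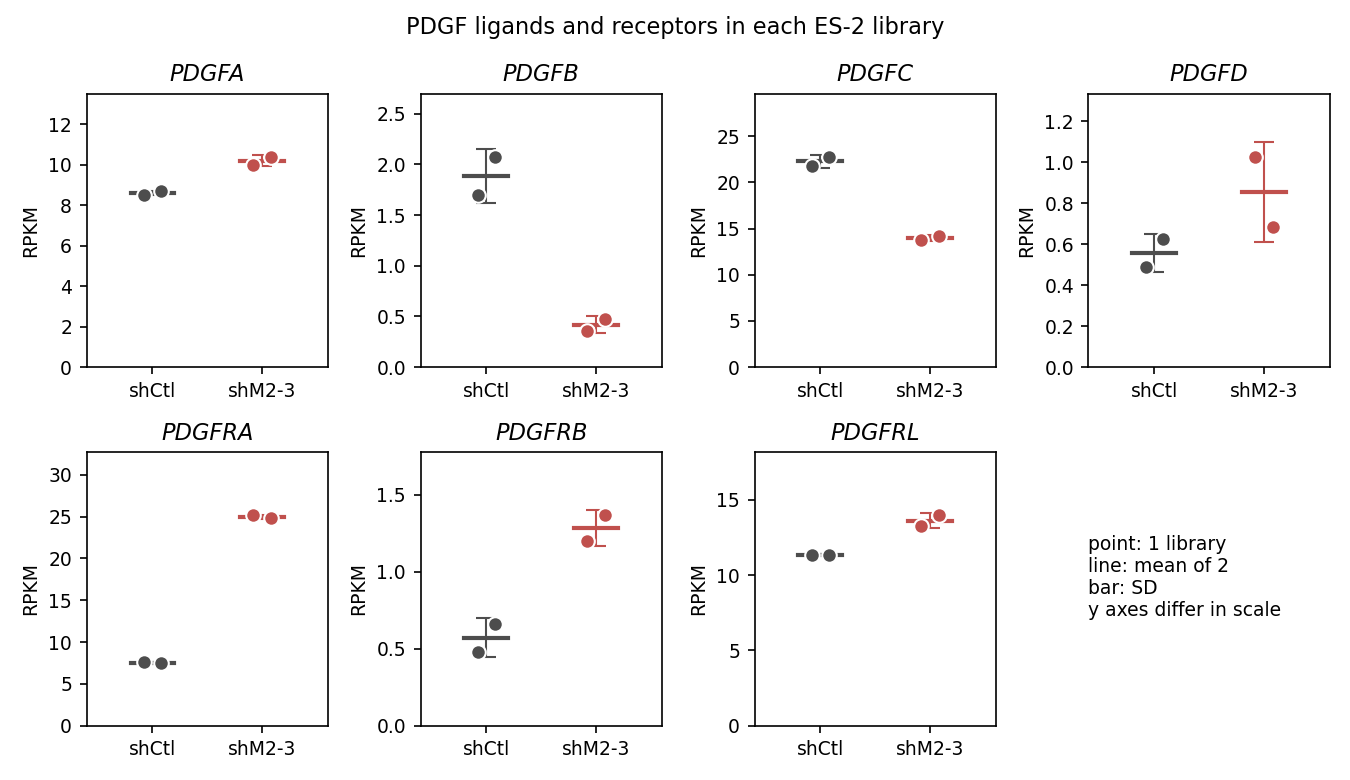
RPKM (reads per kilobase of transcript, adjusted for library size) of each PDGF gene in each library, with the mean and SD of 2 libraries per group and a y axis of its own for every gene. PDGFRA rose from about 7.55 to 25.0 RPKM with hardly any spread, PDGFB fell from 1.89 to 0.420, and the shM2-3 libraries of PDGFD lay far apart.

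PDGFRA encodes the receptor alpha chain. Its RPKM was 7.58 and 7.51 in the shCtl libraries and 25.2 and 24.8 in the shM2-3 libraries. Both knockdown libraries stood well above both controls, and replicates differed by little. Behind these levels stood 1375 and 1385 counts in the controls and 5579 and 4977 after knockdown. On the log2 scale the change was 1.79 (SE 0.0451, 95% interval 1.70 to 1.89, adjusted p = 4.81e-13 in edgeR), a 3.46-fold rise, and 96.8% of the genes tested had a lower log2 fold change. In its level PDGFRA moved from the middle of the tested genes, with 51.1% of them at a lower RPKM in shCtl, to a place above 83.8% of them in shM2-3. PDGFRA lies on chromosome 4 of hg38 from 54229280 to 54298245 on the plus strand. The annotation places an unnamed protein-coding gene over it on the same strand that shares 1533 exon bases, so counts on PDGFRA may include reads of that gene, which has no row in the tables.

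PDGFRB encodes the receptor beta chain and was far scarcer. Its RPKM was 0.482 and 0.662 in shCtl and 1.20 and 1.37 in shM2-3. The counts were 83 and 116 against 253 and 261. The shM2-3 values lay above both controls, and the distance between groups was larger than the spread inside either. Knockdown changed it by 1.23 on the log2 scale (SE 0.186, 95% interval 0.83 to 1.63, adjusted p = 4.47e-05 in edgeR). The rise was 2.35-fold with an interval from 1.78-fold to 3.10-fold, so the fold change limit of 2 falls inside it. Even after the rise, 9.54% of the tested genes had a lower RPKM than PDGFRB, which left it among the weakly expressed genes. On the log2(RPKM + 1) scale, which compresses low values, the change of PDGFRB was 0.54 and no longer a call. PDGFRB lies on chromosome 5 from 150113839 to 150155872 on the minus strand.

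PDGFRL encodes a predicted secreted protein that resembles the ligand-binding part of the receptor and has no kinase domain. Its RPKM was 11.3 and 11.4 in shCtl and 13.3 and 14.0 in shM2-3. The groups were close but separate, with counts of 509 and 519 against 728 and 695. This gave a log2 fold change of 0.33 (SE 0.0838, adjusted p = 0.00313 in edgeR), short of the fold change limit. Exons of MTUS1 overlap those of PDGFRL by 277 bases on the opposite strand. Strand was not kept in these libraries. MTUS1 itself went from 44 and 32 counts to 104 in each knockdown library, and the part of such reads in the PDGFRL value was not tested.

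The receptor genes are shown with the promoter letters around a CCAAT box. PDGFA is set beside them because 1 of its 4 promoter windows holds the box too. Windows were RefSeq promoters of GRCh38.p14 (hg38), from 250 bases before to 50 bases after a transcript start. Those of 4 of the 7 genes were searched (PDGFA, PDGFD, PDGFRA and PDGFRB), 8 windows in all. No window of PDGFB, PDGFC or PDGFRL was searched, so nothing is said of motifs in these genes. RefSeq starts can differ from the GENCODE gene ends given here. In the 30-base stretches below, written 5′ to 3′ along the gene, the capitals mark the motif.
PDGFRA, second start, chr4:54233874-54233903: taacagtcgtttCCAATcagctgcgcggcc
PDGFRA, first start, chr4:54229250-54229279: gactataacatTGAATCAattacaaaacgc
PDGFRB, chr5:150155922-150155951: ctcccagctgggCCAATcagaagccaccct
PDGFA, most distal start, chr7:520820-520849: tgtagtcagggtCCAATccctcctggtcta
The CCAAT box began 74 bases before the start in PDGFRA, 94 in PDGFRB and 137 in PDGFA. CCAAT was searched on both strands and matched in 1 of 4 PDGFA windows, 1 of 2 PDGFRA windows and the 1 PDGFRB window. The 1 PDGFD window had 0 matches. The box occurs in 34.6% of all 35116 promoters of the same length, so a match is common and is no sign of shared regulation. The AP-1 motif TGANTCA occurred 32 bases before the first PDGFRA start and in 7.71% of promoters. The TEAD core motif GGAATG, present in 14.0% of promoters, and TATAAA, present in 11.5%, had no match in the windows of PDGFA, PDGFD, PDGFRA or PDGFRB. These motifs do not overlap each other in the stretches shown, and a match of letters is a description of the sequence and not of binding.

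PDGFC, the most abundant ligand transcript in both groups, fell. Its RPKM was 21.8 and 22.8 in shCtl and 13.8 and 14.2 in shM2-3. The groups were clearly separate, with 2363 and 2515 counts against 1827 and 1711. For PDGFC the log2 fold change was -0.60 (SE 0.0507, 95% interval -0.71 to -0.49, adjusted p = 1.37e-07 in edgeR). This is a 1.52-fold decrease and was not called at the limit of 2. PDGFC lies on chromosome 4 from 156760454 to 156971799 on the minus strand, on the same chromosome as PDGFRA.

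PDGFB, the cellular counterpart of the viral oncogene v-sis, fell furthest of the 7. Counts fell from 150 and 187 in the controls to 39 and 47 after knockdown. Its RPKM was 1.70 and 2.08 in shCtl and 0.360 and 0.480 in shM2-3, so that 22.3% of the control level remained. Each shM2-3 library was far below each control, although the controls differed from each other by 0.27 (SD) around a mean of 1.89. PDGFB had a log2 fold change of -2.10 (SE 0.243, 95% interval -2.63 to -1.58, adjusted p = 3.40e-06 in edgeR), a 4.30-fold decrease, and only 1.88% of genes tested had a lower value. PDGFB lies on chromosome 22 from 39223359 to 39244982 on the minus strand.

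PDGFA, whose chain binds the alpha receptor, went the other way by a small amount. Its RPKM was 8.53 and 8.70 in shCtl and 10.0 and 10.4 in shM2-3. The groups did not overlap and the step between them was larger than the spread within either. Its log2 fold change was 0.31 (SE 0.0794, 95% interval 0.14 to 0.48, adjusted p = 0.00316 in edgeR), and 68.3% of the genes tested had a lower value. PDGFA lies on chromosome 7 from 497258 to 520296 on the minus strand.

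PDGFD, a ligand of the beta receptor, was the least certain of the ligands. Control libraries held 44 and 57 counts and knockdown libraries 113 and 68. Its RPKM was 0.491 and 0.624 in shCtl and 1.03 and 0.684 in shM2-3. The second shM2-3 library was barely above the higher control, and most of the difference came from the first. Its log2 fold change was 0.69 (SE 0.301, 95% interval 0.04 to 1.34, adjusted p = 0.0539 in edgeR), so the data allow anything from almost no change to a rise of 2.53-fold. Without shM2-3 replicate 1 PDGFD no longer met the RPKM minimum and was not tested, since no other library exceeded 1 RPKM. PDGFD lies on chromosome 11, the chromosome of MAML2, from 103907189 to 104164379. DDI1 overlaps it on the opposite strand with 193 exon bases but had at most 1 count in any library.

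**Figure D2:**
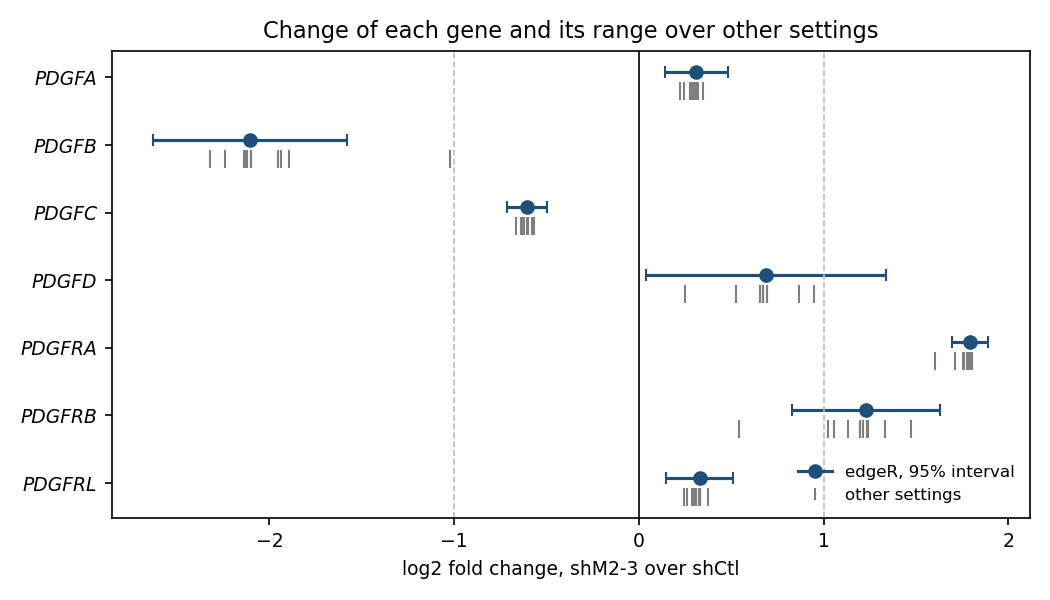
Log2 fold change of shM2-3 over shCtl for the 7 genes, as the edgeR estimate with its 95% interval (points and bars) and as the estimates under the other settings tried (grey ticks), where dashed lines mark a fold change of 2. The points of PDGFRA, PDGFRB and PDGFB lay beyond the dashed lines, but the PDGFRB interval (0.83 to 1.63) crossed its line. The lone PDGFRB tick at 0.54 and the lone PDGFB tick at -1.02 came from the log2(RPKM + 1) scale.

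Ordered by RPKM, which compares genes per transcript length, the shCtl cells held PDGFC (22.3 ± 0.716, SD, n = 2), PDGFRL (11.4 ± 0.0197), PDGFA (8.61 ± 0.118), PDGFRA (7.55 ± 0.0523), PDGFB (1.89 ± 0.269), PDGFRB (0.572 ± 0.128) and PDGFD (0.557 ± 0.0941). The library values of PDGFRB and PDGFD overlapped, so their order is not set, and the other neighbours were apart. In shM2-3 cells the order was PDGFRA (25.0 ± 0.258, SD, n = 2), PDGFC (14.0 ± 0.337), PDGFRL (13.6 ± 0.506), PDGFA (10.2 ± 0.276), PDGFRB (1.28 ± 0.118), PDGFD (0.856 ± 0.244) and PDGFB (0.420 ± 0.0847). PDGFC and PDGFRL overlapped there. PDGFRA thus moved from the fourth place to the first, and PDGFB from the fifth to the last.

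The composition of the ligand transcripts shifted from the C towards the A chain. PDGFC made up 66.8% ± 0.253 (SD, n = 2) of the summed ligand RPKM in shCtl and 54.9% ± 0.342 in shM2-3. PDGFA made up 25.8% ± 0.575 and 40.1% ± 0.370. PDGFB fell from 5.64% ± 0.606 to 1.64% ± 0.303, and PDGFD stood at 1.67% ± 0.222 and 3.37% ± 1.02. The RPKM of PDGFC was 2.59 times that of PDGFA in shCtl (2.55 and 2.62 in the libraries) and 1.37 times in shM2-3 (1.37 in each). PDGFA exceeded PDGFB by 4.61-fold in shCtl and by 24.8-fold in shM2-3. The sum over ligands was 32.5 and 34.2 RPKM in shCtl and 25.2 and 25.8 in shM2-3.

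Set against the receptors, the change was larger. PDGFRA and PDGFRB together came to 8.07 and 8.17 RPKM in shCtl and to 26.4 and 26.2 in shM2-3. Ligand over receptor RPKM was therefore 4.03 and 4.18 in shCtl and 0.955 and 0.987 in shM2-3, a balance that did not overlap between groups. The ratio of PDGFRA to PDGFRB was 15.7 and 11.3 in shCtl and 20.9 and 18.1 in shM2-3, so the alpha chain was the main receptor transcript in every library. Each of these ratios reached p = 0.333 in the exact two-sided permutation test, which is the smallest value that 2 libraries against 2 allow.

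**Figure D3:**
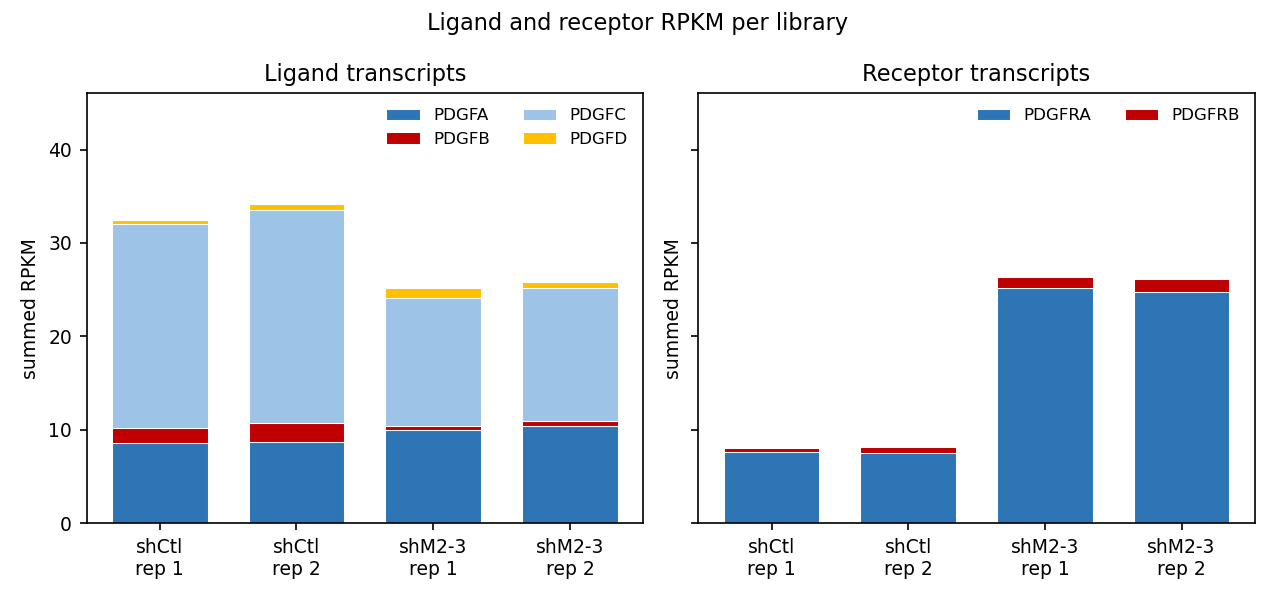
Summed RPKM of the 4 ligand genes (left) and of the 2 receptor genes (right) in each library, stacked by gene on a common axis from 0. Ligand bars reach 32.5 and 34.2 in shCtl and 25.2 and 25.8 in shM2-3, whereas receptor bars go from 8.07 and 8.17 to 26.4 and 26.2, nearly all of it PDGFRA.

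PDGF receptors are known markers of stromal cells, so the transcripts of such cells were read beside them. Of 6 fibroblast markers 1, FAP, exceeded 1 RPKM, with the summed level at 5.14 to 5.19 RPKM in shCtl and 9.82 to 9.99 in shM2-3, while LUM, DCN, COL3A1 and POSTN had at most 10 counts in any library. FAP, a fibroblast surface protease, was called higher together with PDGFRA (301 and 302 against 718 and 678 counts, log2 fold change 1.07), and COL1A2 had 43 and 44 against 60 and 22 counts. The 6 pericyte markers summed to 6.71 to 7.15 RPKM in shCtl and 4.08 to 4.57 in shM2-3. KCNJ8, a potassium channel gene, was called lower (155 and 139 against 57 and 61 counts, log2 fold change -1.45), and CSPG4, the other one above 1 RPKM in both controls, had a log2 fold change of -0.32 and was not called. ABCC9 had 22 and 15 against 3 and 4 counts, and NOTCH3 1 and 3 against 10 and 6. RGS5 and MCAM stayed under 1 RPKM in every library. The 6 endothelial markers summed to 74.8 to 77.3 RPKM and 63.0 to 63.4, most of it TIE1 (log2 fold change -0.13, not called), while VWF, TEK and ERG had at most 18, 3 and 1 counts. The adhesion genes of this list went opposite ways. PECAM1 was called higher, from 6 and 5 to 256 and 163 counts (log2 fold change 5.07), and CDH5 was called lower, from 869 and 985 to 485 and 424 (-1.17). PECAM1 passed the RPKM minimum only through shM2-3 replicate 1, and the size of its change rests on few control reads. The 4 leukocyte markers with a row summed to 0.524 to 1.04 RPKM in shCtl and 1.01 to 3.27 in shM2-3, with PTPRC at 3 counts or fewer. CD14 had 3 and 4 against 42 and 37 counts, and LYZ 33 and 15 against 100 and 5, so that the highest sum rests on LYZ in shM2-3 replicate 1. The 3 platelet markers summed to 1.46 to 1.84 RPKM in shCtl and 0.900 to 1.05 in shM2-3. The part of these markers in the PDGF values was not tested.

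Genes whose products process or bind PDGF chains, or associate with their receptors, were mostly higher in shM2-3 cells. Of 10 genes for ligand processing and binding 7 were tested, of which 3 were called higher and 0 lower by edgeR and 3 and 0 by DESeq2, so that 42.9% were called against 18.2% of all genes tested. The adjusted p alone was passed by 6 higher genes and 1 lower gene (36.3% and 36.4% of all genes), as was an unadjusted p of 0.05. The median log2 fold change was 0.85 against -0.00373 over all genes. NRP1, a co-receptor that binds PDGF and VEGF, rose from 45.3 and 46.4 RPKM to 132 and 131, a log2 fold change of 1.59 (SE 0.0378). FURIN, a protease that cleaves the A and B chain precursors, rose from 15.7 and 16.3 RPKM to 41.5 and 40.6. LRP1, an endocytic receptor that associates with the beta receptor, rose from 25.8 and 24.7 RPKM to 52.6 and 50.7. PLAT (tissue plasminogen activator), which can release active PDGFC, had a log2 fold change of 0.29 and PLAU (urokinase), which can release active PDGFD, one of -0.82. Both passed the adjusted p and neither was called. PCSK5, PCSK6 and ST14 were too low to be tested.

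Downstream of the receptors few genes of the signal relay were called. All 26 were tested, and edgeR called 2 higher and 0 lower (DESeq2 also 2 and 0), which is 7.69% against 18.2% of all genes, around a median log2 fold change of 0.29. Without the fold change limit 15 were higher and 3 lower (36.3% and 36.4% of all genes) and 8 did not pass, while an unadjusted p of 0.05 was passed by 15 higher and 3 lower genes. PIK3R3, a regulatory subunit of phosphatidylinositol 3-kinase, rose from 0.950 and 0.917 RPKM to 2.56 and 2.37, and passed the RPKM minimum only through shM2-3. NCK2, an adaptor protein, had a log2 fold change of 1.01, just past the limit, and lost its call under 7 of 12 alternatives, among them leaving out shCtl replicate 1 (0.98) or shM2-3 replicate 1 (0.97). The adaptor SHC1 (0.06), the phosphatase PTPN11 (-0.03) and PLCG1 (0.08) did not pass the adjusted p.

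Of 8 genes that restrain the receptors, all tested, 2 were called higher and 1 lower (37.5% called against 18.2% of all genes), around a median log2 fold change of 0.14. PTPRJ, a receptor-type phosphatase that dephosphorylates PDGFRB, rose from 5.18 and 4.90 RPKM to 20.5 and 19.8, a log2 fold change of 2.06 (SE 0.0497). SH3KBP1, an adaptor of receptor endocytosis, rose by 1.34 on the log2 scale. CAV1, the caveolin that binds growth factor receptors in the membrane, fell from 340 and 338 RPKM to 137 and 141. The ubiquitin ligase genes CBL and CBLB had log2 fold changes of 0.33 and 0.28. The phosphatase genes PTPN1 and PTPN2 went the other way, with -0.43 and -0.69, and were not called. With the adjusted p alone 4 genes of this list were higher and 3 lower (36.3% and 36.4% of all genes).

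Genes that respond early to growth factors split. All 16 were tested, 5 were called higher and 3 lower (50% called against 18.2% of all genes), and the median log2 fold change was 0.51 against -0.00373 over all genes. DUSP4 rose from 3.53 and 3.66 RPKM to 41.9 and 42.5, a log2 fold change of 3.62 (SE 0.0503), and SPRY4 and DUSP6 had log2 fold changes of 1.48 and 1.18. These are inhibitors of ERK signalling, as is SPRED2, which was also called higher together with IER3. DUSP1, a phosphatase of MAP kinases, fell from 126 and 125 RPKM to 22.0 and 23.3, a log2 fold change of -2.40 (SE 0.0487). The AP-1 genes JUN and FOSL1 fell by 1.74 and 1.53 on the log2 scale. Not all AP-1 genes fell, since JUNB had a log2 fold change of 0.61 and FOSB one of -0.60. Both passed the adjusted p and neither was called. EGR1 and FOS, the classical immediate responders, had values of -0.13 and -0.27.

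Among the relatives of the PDGF system, the VEGF ligands and the other class III receptor kinases with their ligands, 9 of 14 were tested, 3 were called higher and 1 lower (44.4% called against 18.2% of all genes), and the median log2 fold change was 0.75. VEGFA, a ligand of the same structural superfamily, rose from 22.6 and 23.7 RPKM to 145 and 145. CSF1, the ligand of the receptor CSF1R, rose from 2.95 and 3.11 RPKM to 17.3 and 17.8. CSF1R went from 2 and 8 counts to 230 and 223, a log2 fold change of 5.33 (SE 0.356), and passed the RPKM minimum only through shM2-3. Its size rests on few control reads, since the log2 fold change was 4.68 without shCtl replicate 1 and 6.58 without shCtl replicate 2. KIT fell from 3.22 and 4.17 RPKM to 1.64 and 1.12, a log2 fold change of -1.35 (SE 0.167). The adjusted p of the genes called in these lists did not exceed 7.13e-06 in edgeR, the highest being that of KIT.

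**Figure D4:**
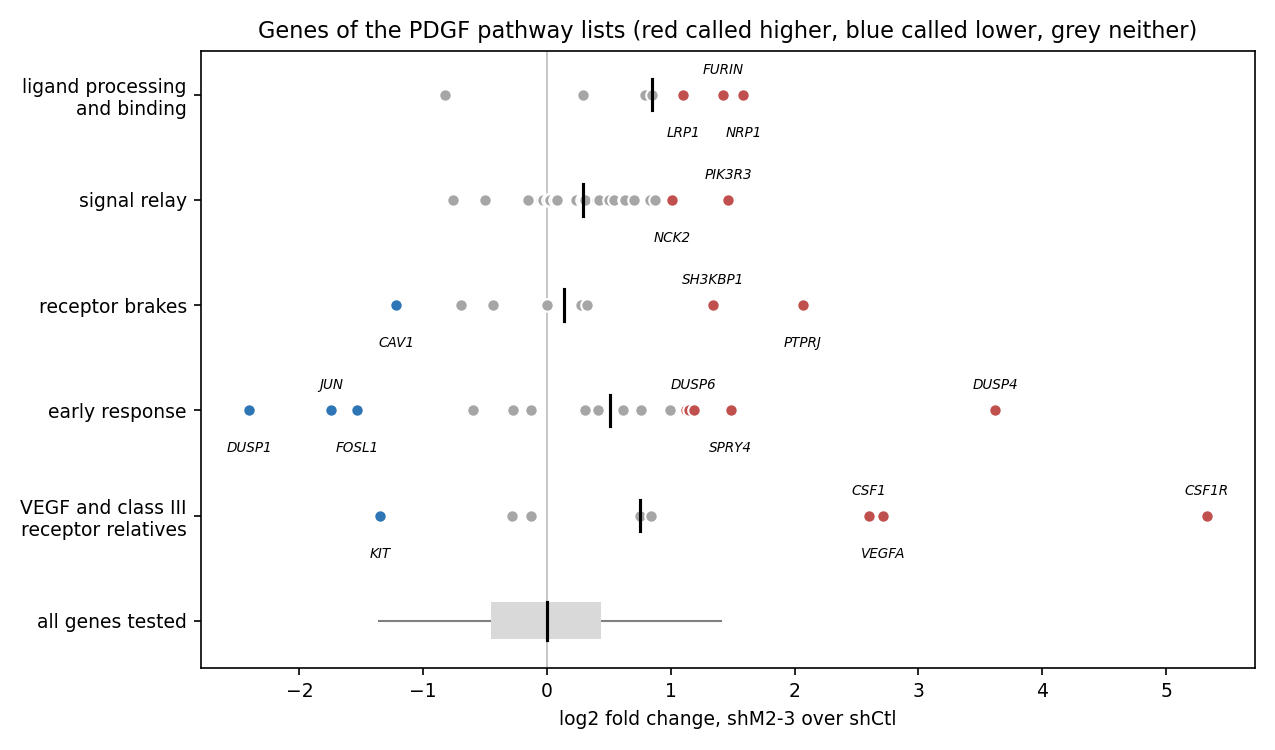
Log2 fold change of shM2-3 over shCtl for each tested gene of the 5 lists (points, red called higher, blue called lower, grey neither), with the list median as a black line and, for all genes tested, the quartiles as a box and the range from the 5th to the 95th percentile as a line. DUSP4 and CSF1R lie far to the right and DUSP1 far to the left, whereas the signal relay list stays between -0.76 and 1.46.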

How the data were processed

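According to the study's methods, 150-base read pairs from libraries without strand were aligned to hg38 by HISAT2 2.0.4, ambiguous and poorly mapped reads were dropped, and RefSeq transcripts were quantified in Partek 7.18. The authors deposited estimated counts without normalization, which were rounded here. They also deposited RPKM values, in which each count is scaled by the length of its gene and a constant of its library. edgeR 4.0.16 in R 4.3.3 (TMM factors, quasi-likelihood F test, no block) was run on the 12157 genes above 1 RPKM in at least 1 library, and its folds can differ slightly from RPKM ratios. SE is the log2 fold change over the root of F, and the 95% intervals rest on it. On simulated counts for these genes 200 of 200 changed genes were recovered and 0 others called. All planted changes lay beyond the fold limit, all other genes were unchanged, and a single low dispersion was used. This checks that the fit runs as intended and says nothing about the calls made here. Alternatives were other scalings, filters and fold limits, DESeq2 1.42.0, limma 3.58.1 on log2 RPKM, a replicate block and leaving out each library.

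Members and lists were chosen with earlier results of these data known. The pathway genes named are up to 3 per list and direction among called genes whose higher group reached 1 RPKM in both libraries, and for each called member the 3 nearest profiles are named. Other pathway genes, markers, neighbours and promoter motifs were added after values had been seen. Coordinates come from GENCODE release 44 on hg38. The edgeR p-values set the group difference against the spread between libraries of the same group, which are labelled as biological replicates, 4 libraries in all.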

Additional observations from a re-analysis of the deposited data

How the results depend on the processing

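None of the 7 genes changed direction over the 12 alternatives that give a fold change (11 for PDGFD). With a fold change limit of 1.5 in place of 2, PDGFC joined PDGFB among the members called lower, giving 2, and 27 pathway genes were called higher and 9 lower in place of 15 and 5. Over all 12157 genes tested, 2296 were then called higher and 2302 lower in place of 1123 and 1086. With limma on log2(RPKM + 1), 1 member (PDGFRA) was called higher. On that scale PIK3R3 (0.84), KIT (-0.98) and the genes nearest to PDGFRB lost their calls too, and MTHFS also without shCtl replicate 1 (0.93). For PDGFD the adjusted p passed 0.05 without a low-count filter (log2 fold change 0.66, adjusted p = 0.0312), and it lay between 0.0270 and 0.218 over those 11 alternatives. Leaving out 1 library, which leaves a lone sample assumed to vary like the other group, moved the log2 fold change of PDGFD between 0.53 and 0.95, and it passed without shCtl replicate 2 and without shM2-3 replicate 2. Without shM2-3 replicate 1 it was under the RPKM minimum and not tested. Counted as reads in place of RPKM, PDGFA was 17.7% of ligand counts in shCtl and 29.1% in shM2-3, and PDGFC 75.5% and 65.9%, since transcript length differs between them. With the replicate block, 2 members were called higher and 1 lower, as without it, and 1123 genes were higher and 1079 lower in all. Same-numbered libraries did not deviate together (Pearson r = -0.00813 across genes), so they share only a number. Low counts limit PDGFB, PDGFD and PDGFRB most.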

Other observations

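Genes beside the PDGF loci moved in both directions. Of the 28 nearest protein-coding neighbours, 2 on each side of each locus, 17 were tested, 3 were called higher and 2 lower, which is 29.4% against a background of 18.2%. KIT, the next gene after PDGFRA at 359 kb and itself a class III receptor, fell while PDGFRA rose. On the other side CHIC2, at 165 kb, had a log2 fold change of 0.67 and was not called. CSF1R lies 467 bases from PDGFRB on the same strand, downstream of it, and went from 2 and 8 counts to 230 and 223, while PDGFRB went from 83 and 116 to 253 and 261. HMGXB3, the gene after CSF1R, had a log2 fold change of 0.60 and was not called. Around PDGFB, CBX7 (-0.55), RPL3 (-0.39) and SYNGR1 (-0.02) were not called. FAM20C, 236 kb from PDGFA, rose from a mean of 41.7 to 175 RPKM. PRKAR1B, at 28.9 kb from PDGFA, had a log2 fold change of 0.86 and DNAAF5, at 206 kb, one of -0.48, and neither was called. On either side of PDGFC, CTSO, at 807 kb, rose with a log2 fold change of 2.40 and GLRB, at 104 kb, fell by 1.01 on the log2 scale. Around PDGFD, DYNC2H1 (-0.87), DCUN1D5 (-0.36) and CASP4 (-0.41) were not called.

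Profiles over the 4 libraries, centred per gene on log2(CPM + 1), where CPM is the TMM-scaled count per library size, were compared by Euclidean distance. The nearest to PDGFRA were WWTR1, which encodes the YAP1 paralogue TAZ (distance 0.0250, log2 fold change 1.81), SLC9A7 (0.0304, log2 fold change 1.77) and TBC1D8 (0.0476, log2 fold change 1.79). The nearest to PDGFB were PTGER4, a prostaglandin receptor gene (0.105), PAXIP1-AS1 (0.119) and MINCR (0.124). The nearest to PDGFRB were PPP1R3F (0.0298), LOC101927045 (0.0624) and MTHFS (0.0908). With 4 libraries in 2 groups such a distance mostly reflects a similar fold change.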
